A study of Mus musculus with 3 samples.

Results

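Antiviral restriction factors are proteins that act inside a cell, or at its membrane, against a virus that has reached it. The 10 described here are Rsad2, Cmpk2, Samhd1, Bst2, Ifitm1, Ifitm2, Ifitm3, Ifi27, Rnf213 and Zc3hav1. They were listed by name and not by any measured value, though with earlier results of these data known. All 10 were found by gene name in the GENCODE M21 annotation, which holds 55536 genes, 22028 of them protein-coding. RNA was sequenced after removal of ribosomal RNA from the chromatin fraction of bone-marrow-derived macrophages of C57BL/6J mice, which holds RNA still attached to its gene as well as RNA kept in the nucleus. Every library came from cells given Lipid A, the lipopolysaccharide component that TLR4 recognises, at 100 ng/ml for 12 h, then kept without it for 12 h, and then given 100 ng/ml again for 25 min. There were 3 libraries, biological replicates 1 to 3, and no untreated or singly treated cells are compared here, so the values are levels within 1 state and say nothing of induction. The labels give the same donor identifier for all 3, age and sex were not collected, and nothing says whether the cultures came from separate animals, so the spread may be technical. The RNA input was 1 µg, 250 ng and 500 ng in replicates 1, 2 and 3.

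Most restriction factors are held low in a resting cell and are raised by interferon, which signals through its receptor, JAK kinases and transcription factors that include STAT2 and IRF9 to interferon-stimulated response elements in promoters. In macrophages TLR4 reaches the same genes by way of the adaptor TRIF, IRF3 and secreted interferon beta. The proteins act at different steps: IFITM proteins hinder fusion of the virus with the cell membrane, SAMHD1, viperin and CMPK2 act on nucleotides, the zinc-finger protein ZAP binds viral RNA, and tetherin holds budding particles on the cell surface.

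The promoters are shown first, because the interferon-stimulated response element is the sequence that most of these genes are known for. RefSeq windows on GRCm38.p6, from 250 bases before to 50 after the gene start, were matched by symbol for 9 of the 10 genes, all but Ifi27. The element was searched as GAAANNGAAA on both strands, with overlapping matches counted. It was present in 4 of 9 windows, those of Rsad2, Bst2, Ifitm2 and Ifitm3, while 3.44% of all 32851 windows of the same length held it. The windows of those 4 genes and of Cmpk2, the neighbour of Rsad2, are printed 5′ to 3′ on the strand of the gene, with matches to the element in capitals. They lie at chr12:26456403-26456702 (minus strand, Rsad2), chr12:26468965-26469264 (plus strand, Cmpk2), chr8:71537423-71537722 (minus strand, Bst2), chr7:140955912-140956211 (minus strand, Ifitm2) and chr7:141010695-141010994 (minus strand, Ifitm3).
Rsad2: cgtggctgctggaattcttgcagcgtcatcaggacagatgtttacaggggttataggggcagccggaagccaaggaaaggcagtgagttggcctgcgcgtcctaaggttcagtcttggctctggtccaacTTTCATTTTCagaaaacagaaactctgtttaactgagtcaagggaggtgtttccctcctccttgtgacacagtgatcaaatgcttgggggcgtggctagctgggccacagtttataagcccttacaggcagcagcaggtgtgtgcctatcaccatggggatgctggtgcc
Cmpk2: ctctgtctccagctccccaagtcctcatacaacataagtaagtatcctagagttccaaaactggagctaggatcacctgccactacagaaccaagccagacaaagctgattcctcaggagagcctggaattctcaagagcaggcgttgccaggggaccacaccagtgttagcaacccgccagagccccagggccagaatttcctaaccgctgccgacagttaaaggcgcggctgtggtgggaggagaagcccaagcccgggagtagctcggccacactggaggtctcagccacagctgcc
Bst2: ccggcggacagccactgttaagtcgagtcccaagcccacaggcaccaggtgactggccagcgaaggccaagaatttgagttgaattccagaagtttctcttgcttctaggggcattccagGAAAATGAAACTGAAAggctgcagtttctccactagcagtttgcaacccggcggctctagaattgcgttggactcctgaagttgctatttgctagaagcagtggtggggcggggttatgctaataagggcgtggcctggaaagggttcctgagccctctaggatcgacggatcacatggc
Ifitm2: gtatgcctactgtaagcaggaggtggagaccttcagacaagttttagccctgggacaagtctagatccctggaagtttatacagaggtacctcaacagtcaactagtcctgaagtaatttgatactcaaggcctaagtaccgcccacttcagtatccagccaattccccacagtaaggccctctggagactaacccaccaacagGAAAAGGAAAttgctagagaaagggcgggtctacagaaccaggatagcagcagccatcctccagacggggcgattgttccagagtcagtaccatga
Ifitm3: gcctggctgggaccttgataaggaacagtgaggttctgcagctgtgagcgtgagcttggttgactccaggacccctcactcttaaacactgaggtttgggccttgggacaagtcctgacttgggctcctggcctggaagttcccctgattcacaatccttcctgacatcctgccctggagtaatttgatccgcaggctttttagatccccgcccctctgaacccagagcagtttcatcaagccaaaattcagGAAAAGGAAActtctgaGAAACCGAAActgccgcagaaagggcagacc

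In the Rsad2 window the match, TTTCATTTTC, reads on the opposite strand and spans bases -120 to -111 from the start. The Bst2 window held a pair of overlapping matches, GAAAATGAAA at -130 to -121 and GAAACTGAAA at -124 to -115. Ifitm2 and Ifitm3 shared the match GAAAAGGAAA, which lay at -46 to -37 in Ifitm2 and at 3 to 12, past the start, in Ifitm3. Ifitm3 held a second match, GAAACCGAAA, at 20 to 29. The Cmpk2 window held no match to this element. A κB motif was present in 3 of 9 windows (Bst2, Rnf213 and Zc3hav1) and in 4.51% of all windows. A match describes letters and not a bound site. The RefSeq start lay 3001 bases from the GENCODE gene start for Rnf213, 855 for Ifitm1 and 169 for Samhd1, so for these 3 genes the window belongs to another annotated start.

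All 10 genes gave RNA on chromatin. Levels are in TPM, a transcript abundance scaled for length and library total, and detection here means that no library lay under 1 TPM. By that rule 10 of 10 were detected in the gene table, against 44.0% of protein-coding genes, and 10 of 10 in the second transcript table, against 53.7%. At a TPM of at least 5, 9 of 10 passed, and Ifitm1 did not. The share of all protein-coding genes at that threshold was not taken, so this count has no comparison. The median over the 10 genes of log2(TPM + 1) was 6.44, 6.16 and 6.00 in replicates 1, 2 and 3, and the mean of these medians was 6.20 ± 0.22 (SD, n = 3). The same median was 0.61 over all protein-coding genes and 3.56 over those detected. SDs are over the 3 libraries throughout, and coordinates are those of GRCm38.

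**Figure D1:**
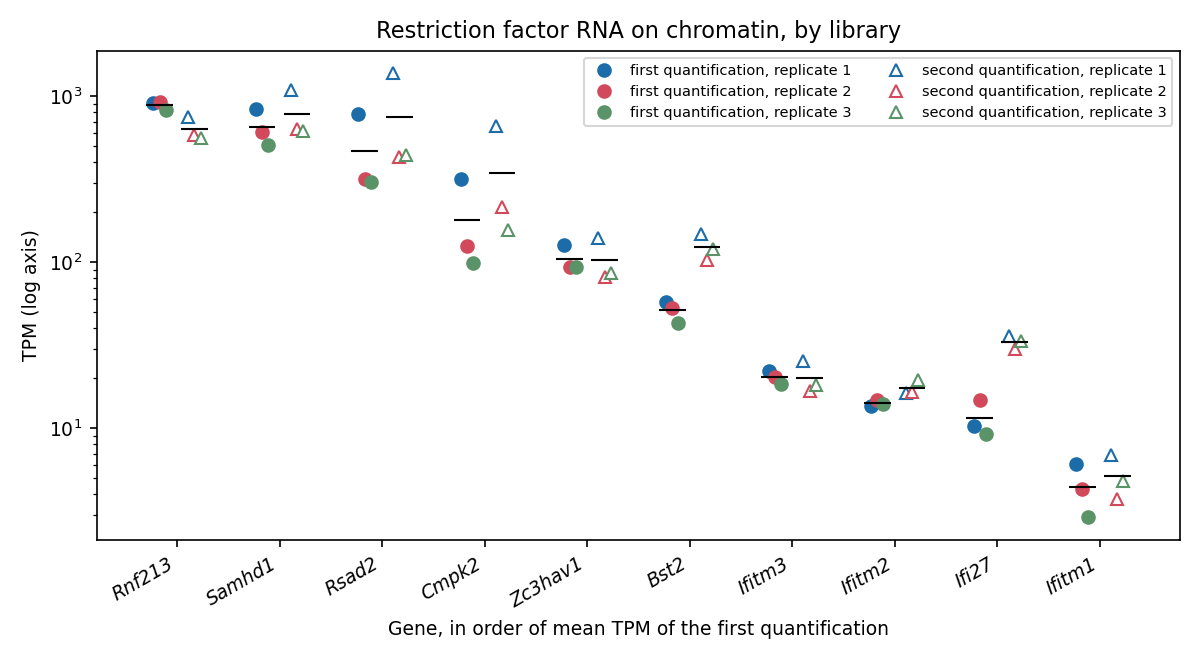
TPM (log axis) of the 10 genes in each library. Filled circles are the first quantification and open triangles the sums of the second transcript table; colours mark replicates 1 to 3 and bars the mean. Replicate 1 stands above the other libraries for Rsad2 and Cmpk2 in both quantifications, while the triangles of Bst2 and Ifi27 lie above their circles.

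Rnf213, a very large ubiquitin ligase with AAA+ ATPase modules that acts on viruses and intracellular bacteria, was the highest of the 10. It lies at chr11:119393100-119487418 on the plus strand and gave 908, 917 and 821 TPM, a mean of 882 ± 52.9, which placed it at rank 10 of 22028 protein-coding genes. The 3 libraries lay close together. Its length brought it 171399, 207004 and 195064 expected counts. The second transcript table gave 747, 585 and 559 TPM, a mean of 630 ± 102. The antisense gene A930037H05Rik overlaps Rnf213 over 38631 bases and was itself at 148, 118 and 88.3 TPM. How reads were assigned by strand is not given in the sources used here, so the levels of both genes are uncertain. The protein-coding gene whose 3 values were most like those of Rnf213, by Euclidean distance in log2(TPM + 1) over the 3 libraries, was Hnrnpa2b1, a gene of a nuclear RNA-binding protein, at 948, 819 and 870 TPM (distance 0.19).

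The genes that act on nucleotides came next. Samhd1, which encodes a hydrolase that empties the cell of deoxynucleotides needed by retroviruses, lies at chr2:157097533-157135265 on the minus strand. Its TPM was 838, 612 and 505, a mean of 651 ± 170 and rank 19, from 23063, 21016 and 19515 expected counts. Replicate 1 was the highest library and replicate 3 the lowest. In the second table it was at 1090, 634 and 614 TPM. Its nearest gene by the same distance was Parp14, an interferon-inducible ADP-ribosyltransferase gene, at 864, 573 and 507 TPM (distance 0.10).

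Rsad2 encodes viperin, a radical SAM enzyme that turns CTP into a chain terminator of viral RNA synthesis, and lies at chr12:26442746-26456452 on the minus strand. It gave 785, 317 and 302 TPM from 38558, 18214 and 18680 expected counts. Replicate 1 stood far above the other libraries, which were alike. The mean was 468 ± 274, at rank 32 (309.8 without replicate 1), and the second table gave 1380, 430 and 445 TPM. In such bulk RNA, fewer cells that make a transcript and less of it per cell cannot be told apart. Its nearest gene was Mndal, a gene of the interferon-inducible p200 family, at 836, 378 and 406 TPM (distance 0.50).

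Cmpk2 encodes a mitochondrial nucleoside monophosphate kinase, and its gene points away from Rsad2, 12751 bases from it, at chr12:26469204-26479837 on the plus strand. It gave 318, 126 and 98.4 TPM, a mean of 181 ± 119 (112 without replicate 1) and rank 198, from 12398, 5646 and 4831 expected counts. As for Rsad2, replicate 1 was the high library. The second table gave 664, 216 and 156 TPM. Rsad2 was above Cmpk2 in all 3 libraries, by 1.41 ± 0.17 on the log2(TPM + 1) scale (n = 3), and by 1.18 ± 0.28 in the second table. The exact two-sided sign-flip permutation test gave p = 0.25, the smallest value that 3 libraries allow, and the Benjamini-Hochberg adjusted value over the 3 pairs of genes tested was also 0.25 (exact permutation test).

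Zc3hav1, the gene of ZAP, which binds CpG-rich viral RNA and recruits its degradation, lies at chr6:38305286-38354603 on the minus strand. It gave 127, 93.3 and 93.2 TPM, a mean of 104 ± 19.3. Replicates 2 and 3 were nearly equal and replicate 1 was higher. The second table gave 140, 81.3 and 86.2 TPM. Rnf213 was above Zc3hav1 by 3.08 ± 0.23 (log2(TPM + 1), n = 3) in the first quantification and by 2.64 ± 0.22 in the second, with the same smallest possible p = 0.25 by the exact sign-flip permutation test.

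Genes of membrane proteins were lower. Bst2, which encodes tetherin, lies at chr8:71534255-71537456 on the minus strand and gave 57.8, 53.2 and 42.7 TPM, a mean of 51.3 ± 7.73 from 451, 411 and 405 expected counts. The counts were alike although replicate 1 had the smallest total, and replicate 1 was the highest library in TPM. The second table put it higher, at 149, 103 and 121 TPM, in all 3 libraries above the first.

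The 3 Ifitm genes lie on chromosome 7. Ifitm3, whose protein guards endosomes against entering viruses, spans chr7:141009586-141010770 on the minus strand and gave 22.0, 20.5 and 18.5 TPM (mean 20.3 ± 1.74) from 138, 139 and 139 expected counts. Ifitm2, a close relative with a similar role, spans chr7:140954837-140955987 on the minus strand and gave 13.6, 14.8 and 14.1 TPM (mean 14.1 ± 0.625) from 81, 94.95 and 100 expected counts. With Rnf213 these were the 3 genes whose libraries lay closest together in the first quantification: the SD was 4.42% of the mean for Ifitm2, 6.00% for Rnf213 and 8.54% for Ifitm3, and over 15% for each of the other 7. It was lowest for Ifi27 (8.98%) and Ifitm2 (10.2%) in the second table, with Rnf213 at 16.2% and Ifitm3 at 22.4%. With TPM over protein-coding genes Ifitm3 (3.30%) and Rnf213 (6.56%) were lowest and Ifitm2 was at 11.3%, behind Bst2 (9.22%) and Zc3hav1 (9.94%). Ifitm3 was above Ifitm2 by 0.49 ± 0.15 on the log2(TPM + 1) scale, in all 3 libraries (n = 3, exact sign-flip permutation test, p = 0.25). The deposited table also gives an interval for the posterior TPM, at a level not stated in it. In replicate 1 it ran from 9.79 to 15.3 for Ifitm2 and from 17.0 to 23.7 for Ifitm3, without overlap. In replicate 2 (10.9 to 16.5 against 16.0 to 22.3) and in replicate 3 (10.6 to 15.7 against 14.5 to 20.2) the intervals overlapped. In the second table the difference was 0.19 ± 0.37 and changed sign in replicate 3 (p = 0.75 by the same exact test), so the order of this pair did not hold in both quantifications. Reads of such similar genes can be split between copies, though the deposited posterior SD of the count was 0 for Ifitm3 in every library. It was 1.19, 1.47 and 1.31 for Ifitm2, which shares 1101 bases with Gm45717, a gene with 0 counts in every library. Whether reads were split was not tested.

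Ifitm1, whose protein stays mainly at the plasma membrane, spans chr7:140967221-140969825 on the plus strand and was the lowest of the 10, at 6.11, 4.28 and 2.90 TPM (mean 4.43 ± 1.61) from 49, 41 and 32 expected counts. Ifi27, an interferon-induced gene of a small hydrophobic protein, spans chr12:103434211-103440239 on the plus strand. It gave 10.3, 14.9 and 9.23 TPM (mean 11.5 ± 2.99) from 53, 76 and 53 expected counts. Replicate 2 was its highest library. These were the fewest reads of the 10 genes. The second table put Ifi27 at 35.8, 29.95 and 33.7 TPM, far above the first, and Ifitm1 at 6.91, 3.73 and 4.81.

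In the order Rnf213, Samhd1, Rsad2, Cmpk2, Zc3hav1, Bst2, Ifitm3, Ifitm2, Ifi27, Ifitm1, neighbours were taken to differ where the difference in log2(TPM + 1) had 1 sign in all libraries and its mean exceeded its SD. By that rule Cmpk2 did not differ from Zc3hav1 (0.61 ± 0.64), nor Ifitm2 from Ifi27 (0.30 ± 0.29, with the opposite sign in replicate 2). The other 7 neighbouring pairs passed it. The order was taken from the same values, so the rule describes these libraries and is no test of a difference. By the second table Cmpk2 did differ from Zc3hav1 (1.49 ± 0.70), while Samhd1 no longer differed from Rsad2 (0.23 ± 0.49) nor Ifitm3 from Ifitm2. The second table turned the order of 3 pairs: Samhd1 was above Rnf213 by 0.26 ± 0.24, Bst2 above Zc3hav1 by 0.30 ± 0.20 and Ifi27 above Ifitm2 by 0.89 ± 0.17. Rnf213 with Samhd1 (0.47 ± 0.31 in the first) and Zc3hav1 with Bst2 (1.01 ± 0.18) thus passed the rule in both, with opposite signs. The steps from Rsad2 to Cmpk2, from Bst2 to Ifitm3 (1.29 ± 0.11 and 2.57 ± 0.08) and from Ifi27 to Ifitm1 (1.22 ± 0.48 and 2.50 ± 0.25) kept their direction and passed the rule in both.

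Replicate 1 differed from the other libraries in some of these genes and not in others. Of the 10 genes, 7 were highest in replicate 1, against 41.4% of detected protein-coding genes. In the second table it was 9 of 10, against 65.1%. Among the 10 genes the size set Cmpk2 and Rsad2 apart. Their log2(TPM + 1) in replicate 1 exceeded the mean of replicates 2 and 3 by 1.51 and 1.34, and in linear TPM they were 2.83-fold and 2.53-fold above that mean. Of the 9689 detected genes, 0.175% had a difference at least as large as that of Cmpk2 and 0.330% one as large as that of Rsad2. The median over detected genes was 0.03, with the lowest decile ending at -0.45 and the highest starting at 0.52. Ifitm1 at 0.65 and Samhd1 at 0.59 lay in the highest decile, and Zc3hav1 at 0.44 below it. Bst2 (0.27), Ifitm3 (0.17), Rnf213 (0.07), Ifitm2 (-0.08) and Ifi27 (-0.17) lay between the deciles as well. Since this is 1 library against the other two, there is no test of it.

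**Figure D2:**
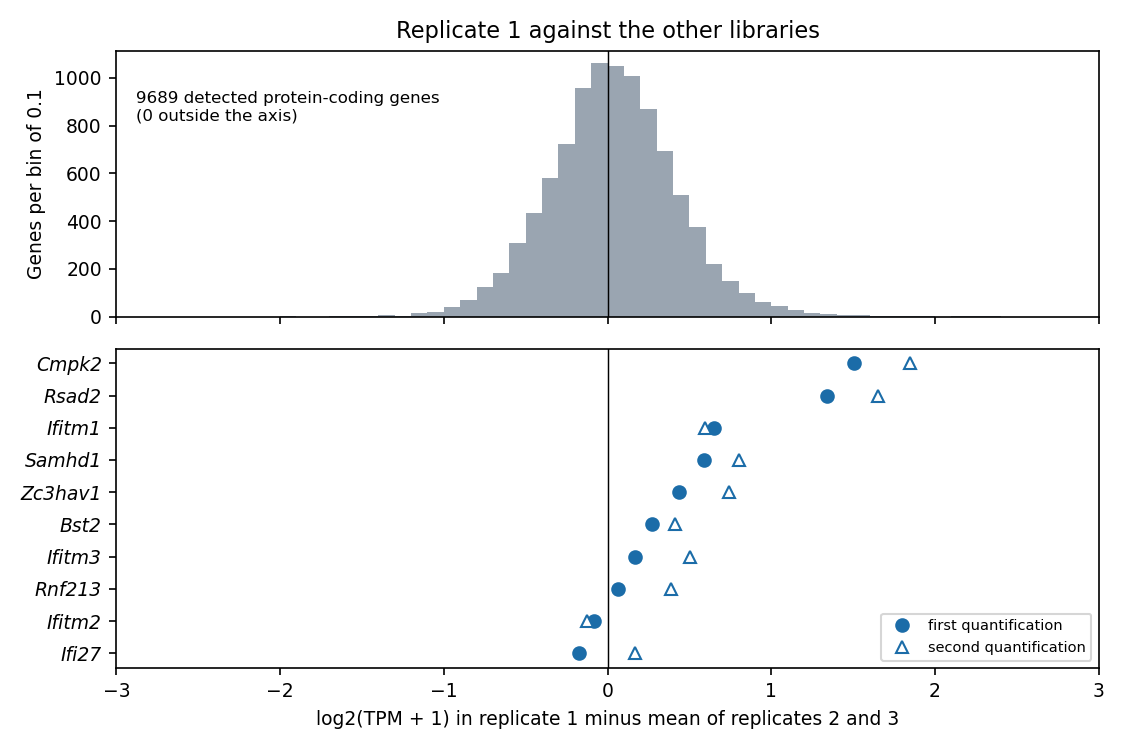
Difference between replicate 1 and the mean of replicates 2 and 3 in log2(TPM + 1). The upper panel counts the 9689 detected protein-coding genes in bins and the lower panel shows the 10 genes, with circles for the first quantification and triangles for the second. Cmpk2 and Rsad2, at 1.51 and 1.34, lie in the far right tail of the histogram, and Ifitm2 lies near 0.

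The small differences depended on the scaling. With TPM rescaled over protein-coding genes alone, 5 of 10 genes were highest in replicate 1, against 23.6% of detected genes, and the median of detected genes moved to -0.16; Rnf213 (-0.14) and Ifitm3 (-0.03) changed sign. With TMM-scaled counts per kilobase 7 of 10 were highest, against 32.1%, and only Rnf213 (-0.04) changed sign, and in the second table, where the median of detected genes was 0.25, Ifi27 (0.17) did. Cmpk2 and Rsad2 stayed at 1.31 and 1.14 with the protein-coding scaling and at 1.40 and 1.23 with TMM. Replicate 1 also had the largest RNA input, the largest part of its counts outside annotated genes (1.75%, against 0.396% and 0.239%) and the largest part of its TPM in protein-coding genes (29.9%, against 26.4% and 25.4%). Their part in the difference was not tested.

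A fit over all 14193 genes with enough counts gave the spread between libraries as a biological coefficient of variation (BCV), the relative SD beyond counting error. Cmpk2 had 0.338 and Rsad2 0.309, against a median of 0.203 over all genes, and 1.85% and 3.44% of genes lay above them. Ifitm1 followed at 0.251 and Ifi27 at 0.223. The other 6 lay between 0.187 and 0.194, and the median of the 10 was 0.193. Whether that median lay below or above that of all genes depended on the setting: with no shrinkage it was 0.1695 against 0.136, without replicate 2 0.211 against 0.207, without replicate 3 0.249 against 0.24, and without replicate 1 0.150 against 0.165. Such values are drawn towards the trend of all genes. Without that shrinkage Cmpk2 was at 0.589 and Rsad2 at 0.516, while Ifitm2 and Ifitm3 were both at 0.00988, the lower bound of the estimate, so that no spread beyond counting error was found.

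The transcripts behind Rsad2 and Cmpk2 did not differ equally between libraries. Rsad2-201, the coding transcript, gave 548, 263 and 263 TPM. Rsad2-202, annotated as a target of nonsense-mediated decay and holding 435 of its 4189 bases (10.4%) in introns of Rsad2-201, gave 234, 50.2 and 38.7 TPM. Both were highest in replicate 1, the coding transcript 2.08-fold above the mean of the other libraries and the decay transcript 5.27-fold. In the second table these ratios were 1.87 and 4.44. For Cmpk2 the coding transcript Cmpk2-201 gave 114, 66.2 and 49.6 TPM. Cmpk2-204, annotated as a retained intron and holding 897 bases (27.4%) in introns of Cmpk2-201, gave 191, 50.8 and 43.8 TPM. Again this intron-holding transcript had the larger ratio, 4.05 against 1.97 for the coding one, and 4.84 against 2.46 in the second table. The other intron-holding transcripts, scarcer in the first table, did not share this there. The ratio was 1.16 for Rsad2-203, 1.86 for Cmpk2-203 and 1.52 for Cmpk2-202, the last named after its value was seen. By the second table they had 3.47, 3.75 and 2.62, above the coding transcripts.

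**Figure D3:**
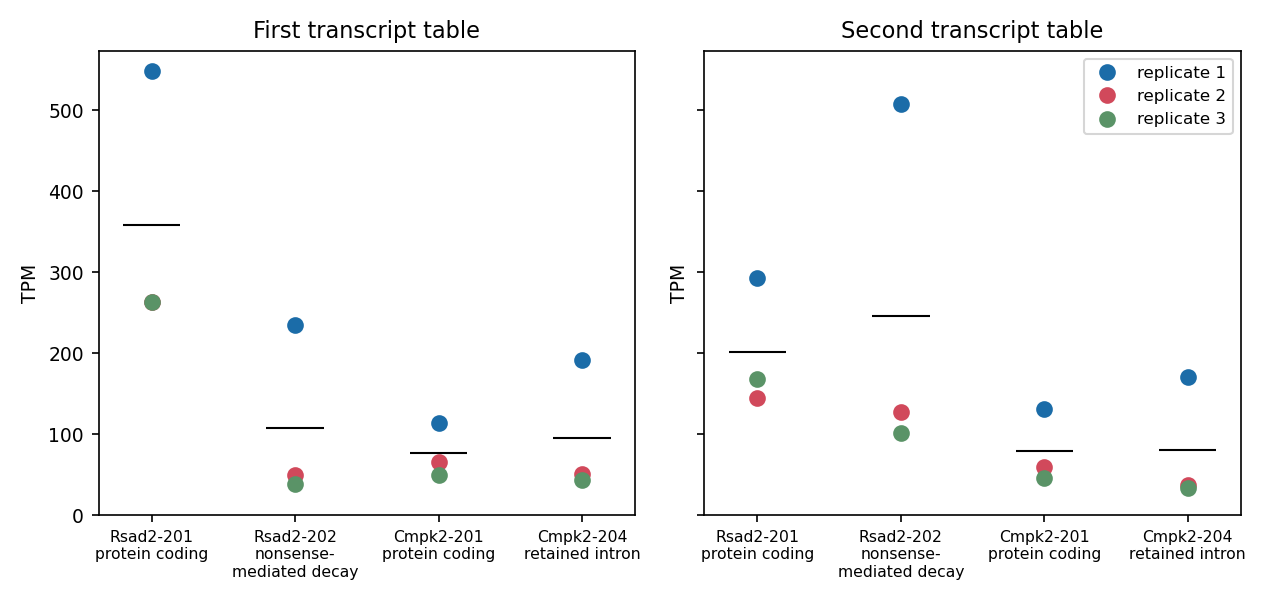
TPM of the coding transcripts Rsad2-201 and Cmpk2-201 and of the intron-holding transcripts Rsad2-202 and Cmpk2-204 in each library. The first transcript table is on the left and the second on the right, and bars mark the mean. The other transcripts of both genes are not drawn. Replicate 1 is the highest library for all 4 transcripts in both tables, and the points of replicates 2 and 3 coincide for Rsad2-201 on the left, at 263 TPM.

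As a share of the gene, transcripts not annotated as coding were higher in replicate 1 than in the mean of the others, by 15.2 percentage points for Rsad2 and by 15.7 for Cmpk2. The coding share of TPM was 69.8%, 83.0% and 86.9% for Rsad2 and 35.9%, 52.7% and 50.4% for Cmpk2. Replicate 1 was lowest for both. Of the 8117 detected genes with transcripts of both kinds, 6.60% and 6.18% had a difference at least as large (3.35% and 9.45% in the second table, where it was 14.5 and 9.03 points), and the median was 1.00 point. Of the 5 restriction factors with noncoding transcripts, 3 had their highest noncoding share in replicate 1 (Rsad2, Cmpk2 and Samhd1), against 39.1% of such genes, and 5 genes are too few to read a difference from that share. The difference was 4.21 points for Samhd1, -3.79 for Ifi27 and -7.49 for Bst2. No test was made of these single-library differences.

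Short transcripts took much of the second table's TPM. Rsad2-203, a processed transcript of 430 bases, was at 2.62, 3.78 and 0.730 TPM in the first table and at 579, 158 and 175 in the second, where it was 39.4% ± 2.63 of the gene's TPM and 3.63% ± 0.465 of its counts. Cmpk2-203, a retained-intron transcript of 330 bases, was at 10.4, 6.86 and 4.37 TPM in the first and at 355, 116 and 73.9 in the second, or 51.5% ± 3.69 of the gene. Bst2-202, of 412 bases, was at 0 in replicates 1 and 3 of the first table and 7.97 in replicate 2, and took 58.7% ± 6.07 of Bst2 in the second. The higher levels of Rsad2, Cmpk2 and Bst2 in the second table thus sat mostly in these 3 short transcripts. By counts in place of TPM, the coding share of Cmpk2 was 48.3% ± 10.2 in the first table and 51.1% ± 9.35 in the second. For Rsad2 (78.7% ± 9.65 and 46.4% ± 12.8) and Bst2 (98.3% ± 2.91 and 66.2% ± 4.55) the tables were farther apart by counts.

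Most Ifi27 RNA was assigned to retained-intron transcripts in both tables. Its 6 coding transcripts together held 3.79%, 0% and 0% of its TPM in the first table and 19.8%, 7.40% and 8.64% in the second. By counts the coding share was 1.65% ± 2.85 and 18.2% ± 8.48. The rest went to retained-intron transcripts, 98.7% ± 2.19 of TPM in the first table and 88.1% ± 6.83 in the second. Ifi27-209 (3.99, 8.01 and 4.87 TPM) and Ifi27-208 (5.66, 4.96 and 3.39 TPM) led, with 15.0% and 46.3% of their bases in introns of the coding transcript Ifi27-202. The second table put the same pair first, at 54.6% ± 7.65 and 22.7% ± 2.68 of the gene. The first table's shares rest on no more than 76 counts a library.

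Samhd1 was split among classes. Coding transcripts held 32.6% ± 2.48 of its TPM, the decay transcript Samhd1-204 26.3% ± 2.19 and retained-intron transcripts 41.1% ± 4.64. Samhd1-204 gave 201, 162 and 143 TPM and the coding Samhd1-203 gave 139, 94.5 and 74.6. Both were highest in replicate 1 and lowest in replicate 3, as the gene was. Samhd1-210, a retained-intron transcript of 681 bases, led in the second table at 278, 121 and 157 TPM, and was at 121, 29.8 and 37.7 in the first. Despite its class it held 0% of its bases in introns of Samhd1-203, and 165 bases lay outside the span of that transcript. The other retained-intron transcripts of the gene held from 26.0% to 74.9% there. The reference matters here: Samhd1-201 spans all of Samhd1-203 but shares only 1758 of its 3245 bases. Bases counted in exons of Samhd1-203 can therefore lie in introns of Samhd1-201. The share of this class thus cannot be read as a share of intron RNA. By counts the coding share was 47.1% ± 0.283 in the first table and 45.3% ± 1.57 in the second. The retained-intron share was 9.73% ± 1.94 of counts in the first table and 17.1% ± 1.64 in the second, where it was 57.7% ± 2.81 of TPM. The tables were thus close in the coding share by counts and apart in the retained-intron share.

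**Figure D4:**
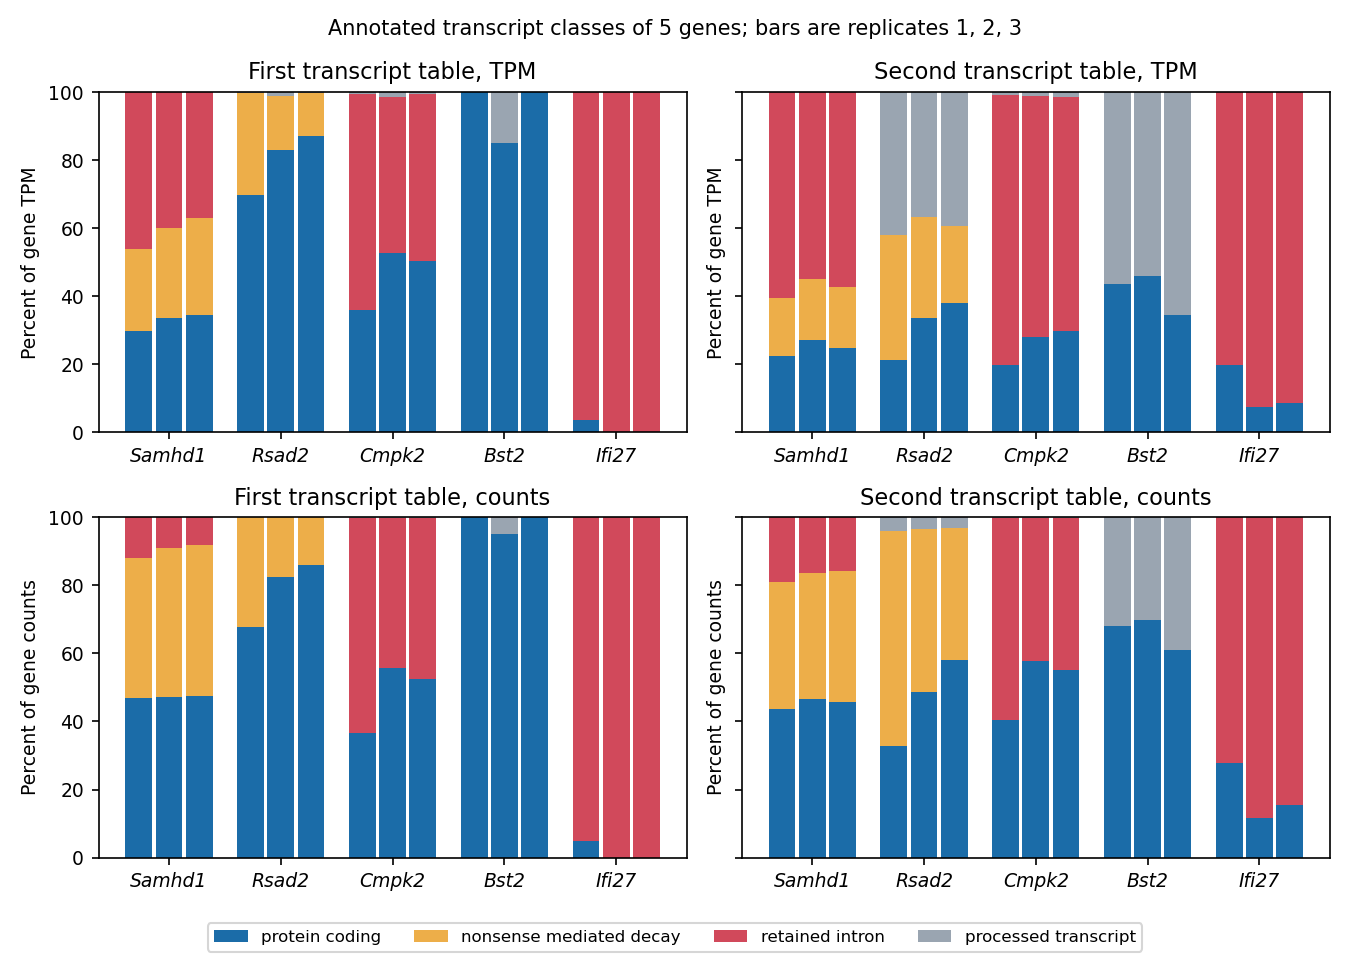
Percent of each gene's TPM (upper panels) and counts (lower panels) by annotated transcript class in replicates 1, 2 and 3, for the 5 restriction factors with noncoding transcripts, by the first (left) and second (right) transcript table. Retained-intron transcripts hold most of Ifi27 in all 4 panels, at 72.2% or more in each library, and the grey processed-transcript part takes 39.4% of Rsad2 by TPM but 3.63% by counts in the second table.

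The other 5 genes have only coding transcripts in the annotation, so RNA of other classes from them, if any, has no transcript of its own to be counted in. Rnf213-201, of 67 exons and 16716 bases, held 82.3% ± 1.26 of Rnf213 in the first table and 96.5% ± 0.826 in the second. Rnf213-203, of 2422 bases at the 3′ end of the gene, gave 150, 161 and 156 TPM in the first table and at most 0.041 in any library of the second. Rnf213-202 was the second in the latter table, at 3.52% ± 0.823. For Zc3hav1, Zc3hav1-203 held 37.3% ± 8.81 and Zc3hav1-201 26.3% ± 11.2, with 31.6% ± 6.64 and 15.6% ± 11.5 in the second table, where Zc3hav1-202 held 28.2% ± 6.07. Zc3hav1-201 was lowest in replicate 1 in both tables (14.0%, 36.0% and 28.8% in the first), the library in which the gene was highest. Zc3hav1-202, with the same start, end and number of exons, went the other way in both (26.1%, 14.1% and 23.8% in the first). The share of Zc3hav1-203 was also highest in replicate 1. Reads moved between such similar transcripts cannot be told from a change in the transcripts. Ifitm1-203 held 82.9% of Ifitm1 in both tables (± 15.5 and ± 2.37) and Ifitm1-201 11.5% ± 10.7 in the first. Ifitm2 and Ifitm3 have 1 transcript each. The median coding share of the 10 genes was 97.5%, against 56.3% over detected protein-coding genes. Over the 5 with noncoding transcripts it was 46.3%, against 49.8% over such genes.

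Genes that act upstream of the restriction factors gave RNA as well. Of 12 genes of interferon signalling, 11 were detected, beside 44.0% of protein-coding genes, and 9 were highest in replicate 1, beside 41.4% of detected genes. That count was 7 with TPM over protein-coding genes (23.6% of detected genes) and 12 in the second table (65.1%). Stat2, a subunit of an interferon-activated factor, was at 585 ± 128 TPM. Irf1 (411 ± 186) and Irf7 (315 ± 87.6), which drive interferon-stimulated and interferon genes, were also high. Irf1 was at 613, 247 and 374 TPM, highest in the same library as Rsad2 and Cmpk2. Ifnb1, the gene of interferon beta, was the 1 gene not detected by the rule, at 2.49, 0.25 and 0.57 TPM from 18, 2 and 5 expected counts. It too was highest in replicate 1, on very few reads.

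Of 16 other restriction factor genes, 14 were detected, beside 44.0% of protein-coding genes. Each of those 14 was highest in replicate 1, beside 41.4% of detected genes. With TPM over protein-coding genes 10 of the 16 were highest there (23.6% of detected genes), with TMM scaling 12 (32.1%), and 15 in the second table (65.1%). Mx1, a dynamin-like GTPase that traps viral nucleocapsids, led at 2605, 1530 and 1170 TPM (1768 ± 746), above every one of the 10 genes. Mx2 (219 ± 114), Apobec3, a cytidine deaminase gene (194 ± 38.4), and Eif2ak2, the gene of the double-stranded RNA sensor PKR (182 ± 60.7), followed. Ch25h and Serinc5 were the other two, not detected by the rule. The list's median difference of replicate 1 from the rest was 0.45 on the log2(TPM + 1) scale, beside 0.35 for the 10 genes and 0.03 for detected genes. The difference was 1.17 for Mx2, 0.96 for Mx1, 0.75 for Eif2ak2 and 0.42 for Apobec3, beside 1.34 for Rsad2. A large difference was thus not particular to Rsad2 and Cmpk2. None of these differences was tested.

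A further list held 10 genes related to these by family or, for Khnyn, as a cofactor. Of them 5 were detected in the first quantification, beside 44.0% of protein-coding genes, and 7 in the second table, beside 53.7%. Their detection was thus near the background. Parp12, a ZAP-like gene, gave 135 ± 34.8 TPM, Khnyn, the gene of a ZAP cofactor, 18.3 ± 1.70, Ifi27l2a, which lies 1927 bases from Ifi27, 12.7 ± 0.431, and Cmpk1, the cytosolic relative of Cmpk2, 6.55 ± 0.733. Cmpk1 was below Cmpk2 in both quantifications, and in the second it was at 71.0 ± 7.91 beside 345 ± 278. Ifi27l2b had 0 counts in every library, which allows up to 0.222, 0.168 and 0.168 CPM (counts scaled to a fixed library total) in replicates 1, 2 and 3.

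The labelled cell type was checked by markers. All 8 macrophage markers were detected, with a summed TPM of 936 to 1016; Adgre1 (298 ± 52.9), Lyz2 (191 ± 9.59), Csf1r (149 ± 28.9) and Mertk (105 ± 17.1) led. The sum was 936, 960 and 1016 in replicates 1, 2 and 3, and 878, 894 and 825 without Cd14, so that the lowest library changed with that gene. Of the 8, 4 were highest in replicate 1, beside 41.4% of detected genes, and 6 in the second table, beside 65.1%. For plasmacytoid dendritic cells, strong makers of interferon, 3 of 5 markers were detected (summed TPM 144 to 213, highest in replicate 1). They were Tcf4 (101 ± 29.4), Irf8 (80.9 ± 23.6) and Ccr9 (2.45 ± 0.580). Tcf4 was at 135, 86.7 and 81.75 TPM in replicates 1, 2 and 3. Irf8 was at 75.1, 107 and 60.75, highest in replicate 2. The defining gene Siglech was at 0.120, 0.070 and 0 TPM and Ly6d had 0 counts in every library. In the first quantification only Cd4 (7.90 ± 1.89) of 5 T cell markers was detected and Cd3e had 0 counts. None of 4 B cell, 5 neutrophil, 4 NK cell or 4 fibroblast markers was detected there, with Pax5, Ly6g, S100a8, Elane, Klrb1c, Prf1 and Gzma at 0 counts. Of 4 endothelial markers Kdr alone was, at 9.44, 1.80 and 2.99 TPM, highest in replicate 1, and Cldn5 had 0 counts. The fibroblast markers summed to 0.01, 1.29 and 1.14 TPM, lowest in replicate 1, with Col1a1 at 0, 32 and 42 counts. The second table had more of these markers detected: 4 plasmacytoid dendritic cell markers (Siglech at 1.66 ± 0.279), 3 T cell markers (Cd3d at 12.1 ± 4.41, Cd4 and Cd8a at 2.20 ± 0.341), 1 neutrophil marker (Mpo, 1.25 ± 0.27) and 1 fibroblast marker (Col1a1, 1.26 ± 0.218) but no B or NK cell marker. Whether cells of other types had a part in the replicate 1 values was not tested. The libraries differed from one another by more than counting noise, with a chi-square statistic per degree of freedom over genes of 153 between replicates 1 and 2, of 85.5 between 1 and 3, and of 33.5 between replicates 2 and 3. All 3 were kept as separate samples.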

How the data were processed

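The authors deposited, for each of 3 libraries, a gene table and 2 transcript tables for mm10 with GENCODE M21, per the deposited notes and file headers. In the gene table and first transcript table, with columns named as RSEM writes them, the expected counts, TPM, posterior TPM intervals and percent of a gene's TPM per transcript are as deposited by the authors; percents here were recomputed from TPM and counts. The second transcript table, with columns named as kallisto writes them, holds the authors' estimated counts and TPM, summed here per gene. The sources used here do not give the aligner, strand setting or versions.

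Expected counts of annotated genes totalled 13502401, 17848798 and 17824176 in replicates 1, 2 and 3. The other 26345 of 81881 table rows, which name no gene of the annotation (1.75%, 0.396% and 0.239% of counts), stayed out. TPM from ribosome-depleted chromatin RNA includes intronic reads only as far as annotated transcripts hold them. The log2 scale has a pseudocount of 1, which understates differences of low genes. BCV came from edgeR 4.0.16 (R 4.3.3) on rounded expected counts after filterByExpr and TMM normalization, with an intercept alone, and the script was tested on simulated data; DESeq2 1.42.0 was an alternative. Differences within libraries were tested by exact two-sided sign-flip permutation. Promoters came from RefSeq (GRCm38.p6). Other software comprised matplotlib 3.10.9, scipy 1.17.1, pandas 2.3.3 and numpy 2.4.6 under Python 3.11.15. Limits from counts cover counting error only.

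The genes and lists were chosen with earlier results of these data known. Named are all 10 genes, up to 4 highest of each list by mean TPM and members with 0 counts in every library, the nearest gene of the 3 highest genes, and the 2 highest transcripts of each gene in either table. One gene that the rule takes and one promoter motif are not reported here. Ifnb1, Ch25h, Serinc5, Cmpk2-202 and some markers, outside that rule, were named after their values were seen.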

Additional observations from a re-analysis of the deposited data

How the results depend on the processing

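All 10 genes stayed detected with the second transcript table and with posterior mean TPM. At a TPM of at least 5, 9 did, a count with no share of all genes beside it. All 10 also did with TPM over protein-coding genes and without each replicate in turn, but these outcomes were fixed in advance. That scaling raises every TPM, and a gene detected in every library stays so in fewer. Their median log2(TPM + 1) of 6.20 became 6.80 in the second table and 8.07 with TPM over protein-coding genes, and ranged from 6.08 to 6.30 without each replicate. The median coding share of 97.5% became 70.7% in the second table and ranged from 96.3% to 100% without each replicate. More TPM sat in Rsad2-203, Cmpk2-203 and Bst2-202 in that table, and the cause was not tested. Without each replicate Rsad2 exceeded Cmpk2 by 1.32 to 1.47, Ifitm3 exceeded Ifitm2 by 0.41 to 0.55 and Rnf213 exceeded Zc3hav1 by 2.98 to 3.20. Without replicate 1 the mean TPM was 309.8 for Rsad2 (468 with it) and 112 for Cmpk2 (181 with it). The median BCV of 0.193 was 0.194 with DESeq2 size factors, 0.196 without a filter, 0.218 with DESeq2 dispersions, 0.1695 with no shrinkage (added after seeing the data) and 0.150 to 0.249 without each replicate. Of the 10 mean levels, 4 moved by under 1 SD in the second table and 8 with posterior mean TPM. It was 0 with TPM over protein-coding genes and all 10 without any 1 replicate. Neither of these last counts could have differed. The protein-coding scaling raises every level, and leaving out 1 of 3 libraries cannot move a mean by 1 SD. No pairing of libraries between groups was possible because all 3 belong to 1 group. The permutation tests paired genes within each library. Counts of 32 to 100 for Ifitm1, Ifitm2 and Ifi27 limit what can be said of their transcripts, and 3 libraries cannot give a p below 0.25.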
